A study of Homo sapiens with 6 samples.

Results

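Glycolysis turns glucose into pyruvate, and lactate dehydrogenase turns that pyruvate into lactate. The messenger RNAs of 10 enzymes of this route were described across 6 sequencing libraries: HK2, PFKP, ALDOA, TPI1, GAPDH, PGK1, PGAM1, ENO1, PKM and LDHA. They were chosen by gene symbol, as 10 of the 11593 gene symbols in the deposited expression files, and they account for 63 of the 28768 transcript rows. The route has further members, such as glucose-6-phosphate isomerase and the other isozymes of each step, and these are given below for comparison.

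All 6 libraries came from SK-Hep1, an established human line that the labels call hepatocellular carcinoma, and no genetic change or drug is named for any of them. The labels describe them as ChIRP libraries, an assay in which biotinylated antisense DNA probes pull down a chosen RNA together with what is crosslinked to it. In 3 libraries a complete probe set for SNHG10 was used, a long noncoding RNA that hosts a small RNA. In 3 control libraries the probes were for the bacterial gene LacZ, which is absent from human cells. The study's question was which mRNAs are bound by SNHG10. The level of SNHG10 itself was not analysed here, so its retrieval was not checked. The labels' protocol names total RNA without a capture step, and the design text of the series speaks of retrieved RNA, so which RNA fraction the values describe is not settled by the sources used here. The labels do not state that replicates are separate cultures. The p-values therefore reflect only how far these libraries differ from each other, a spread that may be technical.

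Values are FPKM, fragments per kilobase of transcript scaled to the mapped fragments of the library. They are corrected for transcript length and so allow levels of different genes to be compared. Each gene's value is the sum over its transcript rows. A library with SNHG10 probes held 268794 to 272909 FPKM in total and a library with LacZ probes 271354 to 277118, and the read depth is unknown. Of 7 hepatocyte markers, 2 had rows (SERPINA1 and CPS1), at 0 to 1.53 FPKM. The defining hepatocyte genes ALB, TTR and APOA1 had no row in the values used here and so were not analysed. The simple epithelial keratin KRT8 lay between 465 and 549 FPKM with SNHG10 probes, against 589 to 633 FPKM with LacZ probes. Its sets did not overlap, beside 7.21% of all tested genes in that direction. The keratin KRT18 lay between 945 and 1122 FPKM with SNHG10 probes, against 1000 to 1081 FPKM with LacZ probes. Of the mesenchymal markers, VIM lay between 833 and 1202 FPKM with SNHG10 probes, against 953 to 1522 FPKM with LacZ probes, while COL1A1 was at most 4.37 FPKM in any library. Of 3 biliary markers, 2 had rows, KRT19 between 394 and 449 FPKM and KRT7 between 13.9 and 21.6 FPKM. Of 5 endothelial markers, 2 had rows, ENG between 30.7 and 41.8 FPKM and ROBO4 at most 2.01 FPKM. Of 4 leukocyte markers, 2 had rows, CD68 between 35.3 and 54.4 FPKM and CD14 at most 2.69 FPKM.

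In glycolysis, hexokinase traps glucose in the cell as a phosphate, and phosphofructokinase commits it to the pathway. Aldolase splits the resulting sugar into 3-carbon sugars, which triosephosphate isomerase and GAPDH feed into the energy-yielding lower arm. Tumour cells often run this route with oxygen present and release lactate, and several steps have isozymes whose balance differs between tissues. Dividing and transformed cells typically use HK2 and aldolase A. Many of these genes are also textbook targets of HIF-1 and MYC, transcription factors whose binding sites often contain ACGTG or CACGTG. The matches counted below are to these letters only, not to every form of such sites.

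Promoter windows are shown for 3 members on which the results turn. These are GAPDH, whose level differed most between libraries, and HK2 and PFKP, whose probe sets did not overlap. Each line holds the 250 bases before a transcription start, read 5′ to 3′ on the gene's own strand from the RefSeq table (GRCh38.p14). The windows were not matched to the hg19 transcript rows measured here. A window therefore need not precede the transcript that carries most of its gene's level. Capitals mark every match to ACGTG on either strand, with CACGTG counting as overlapping matches on both strands.
GAPDH, chr12:6535014-6535263 (+): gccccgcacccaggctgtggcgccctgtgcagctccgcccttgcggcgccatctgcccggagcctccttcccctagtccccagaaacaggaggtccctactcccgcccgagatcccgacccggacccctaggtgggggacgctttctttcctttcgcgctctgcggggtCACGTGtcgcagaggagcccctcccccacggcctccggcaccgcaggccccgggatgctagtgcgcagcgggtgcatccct
HK2, chr2:74833877-74834126 (+): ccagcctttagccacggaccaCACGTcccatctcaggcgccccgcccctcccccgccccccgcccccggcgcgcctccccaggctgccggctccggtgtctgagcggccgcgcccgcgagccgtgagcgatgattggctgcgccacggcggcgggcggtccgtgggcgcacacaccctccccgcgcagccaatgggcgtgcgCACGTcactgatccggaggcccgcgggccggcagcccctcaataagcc
PFKP, chr10:3068939-3069188 (+): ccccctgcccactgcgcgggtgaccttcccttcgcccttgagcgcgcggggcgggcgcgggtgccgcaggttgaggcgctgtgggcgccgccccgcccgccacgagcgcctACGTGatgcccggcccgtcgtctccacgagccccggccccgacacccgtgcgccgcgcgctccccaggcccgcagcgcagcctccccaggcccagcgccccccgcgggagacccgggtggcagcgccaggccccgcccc
The GAPDH window holds CACGTG at base 170, counted from 1 at the 5′ end. The HK2 window shown, the first of 2 in the table, holds matches at bases 22 and 203, and the window not shown holds CACGTG at bases 57 and 102. The PFKP window shown is the only one of 4 with a match, at base 112, and was picked for it. All 10 members had entries in the table, with 18 windows in all, and 7 members had at least 1 window with a match. Matches stood in 10 of the 18 windows, or 55.6%, against 18.5% of the 35116 windows of the whole table. The palindrome CACGTG stood in 4 of the 18 member windows, against 6.34% of all windows. The member windows were also richer in G and C, with a median of 71% against 58% over all windows, and the share of that composition in the count was not tested. These letters describe the sequence only, and nothing in the libraries measured binding or promoter activity.

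The 10 enzymes spanned a wide range of levels, with GAPDH and ENO1 at the top and HK2 at the bottom. Mean levels over the 6 libraries were 1197 FPKM for GAPDH, 702 for ENO1, 339 for ALDOA, 264 for PKM, 252 for TPI1, 237 for LDHA, 163 for PFKP, 117 for PGAM1, 65.3 for PGK1 and 17.7 for HK2. In that order, the ranges over libraries overlapped between ALDOA and PKM, between PKM and TPI1, and between TPI1 and LDHA. The ranges of the other neighbours did not overlap. HK2, which catalyses the entry step, was thus the least abundant of the 10, and it lay below its isozyme HK1 in all 6 libraries. The 10 genes together held 1.09%, 1.42% and 1.07% of the FPKM total in SNHG10-probe libraries 1, 2 and 3, and 1.08%, 1.56% and 1.17% in LacZ-probe libraries 1, 2 and 3. The means were 1.19% ± 0.195 with SNHG10 probes and 1.27% ± 0.254 with LacZ probes (n = 3 per probe set, SD), a difference of -0.0798 percentage points that is smaller than either SD and becomes 0.0650 without LacZ library 2. Without GAPDH the other 9 held 0.781% ± 0.0217 with SNHG10 probes and 0.804% ± 0.0253 with LacZ probes.

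**Figure D1:**
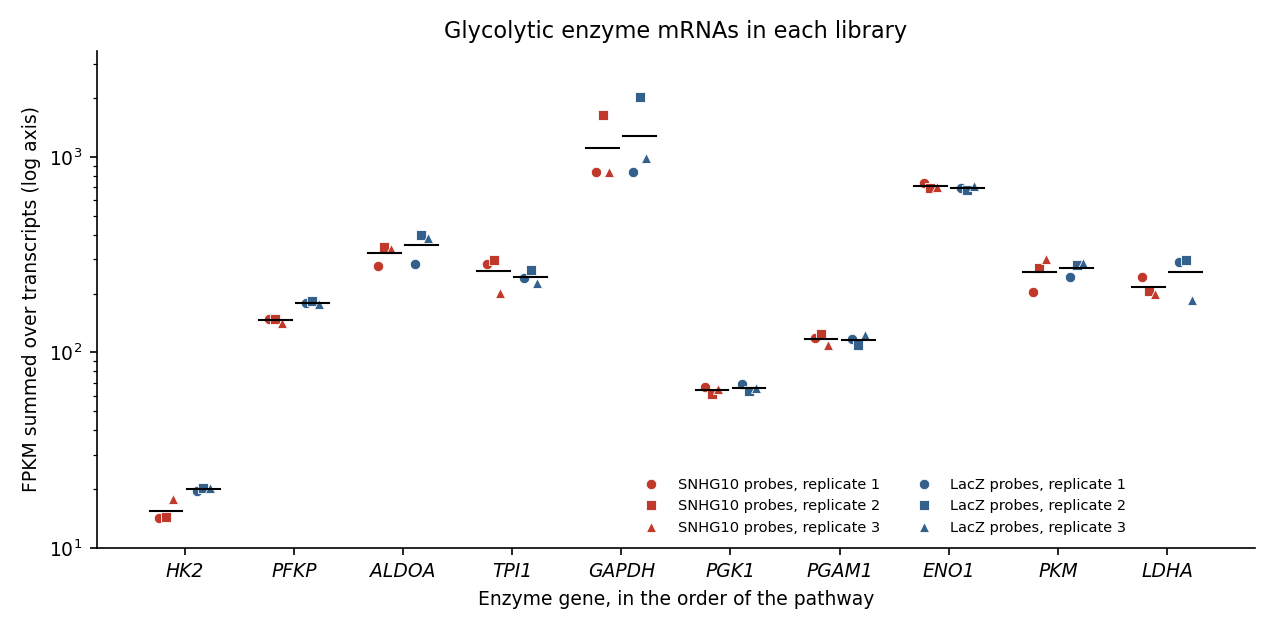
Summed FPKM of each of the 10 enzyme genes (log axis) in pathway order, with SNHG10-probe libraries in red left of LacZ-probe libraries in blue, a marker shape for each replicate number and a bar at each mean. GAPDH stands at 1647 and 2031 FPKM in the libraries numbered 2 and between 836 and 984 FPKM in the other 4, while the points of HK2 and of PFKP do not overlap between probe sets.

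None of the 10 genes passed the test between probe sets. Under limma on log2(FPKM + 1) with Benjamini-Hochberg adjustment over 10304 genes, the members' adjusted p-values ran from 0.885 to 0.992. The background is the same, since 0% of all tested genes were called higher and 0% lower, the smallest adjusted p over all genes being 0.316. Every log2 difference below is SNHG10 probes minus LacZ probes on that scale. All 10 members passed the filter on low values, with at least 14.2 FPKM in every library. The difference was positive for 3 members and negative for 7, with a median of -0.11, beside a median of -0.05 over all genes tested. Median-ratio scaling made it 4 positive and 6 negative. In 2 members, HK2 and PFKP, every SNHG10-probe library lay below every LacZ-probe library, and in 0 members did every library lie above. Over all tested genes such separation downward was seen in 7.21% and upward in 4.22%. An unadjusted limma p under 0.05 was found for 1 member, PFKP, with a negative difference, against 3.32% of all genes in that direction and 2.1% in the other. As the RNA fraction is not settled, a difference in captured RNA and a difference in cellular RNA cannot be told apart here.

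**Figure D2:**
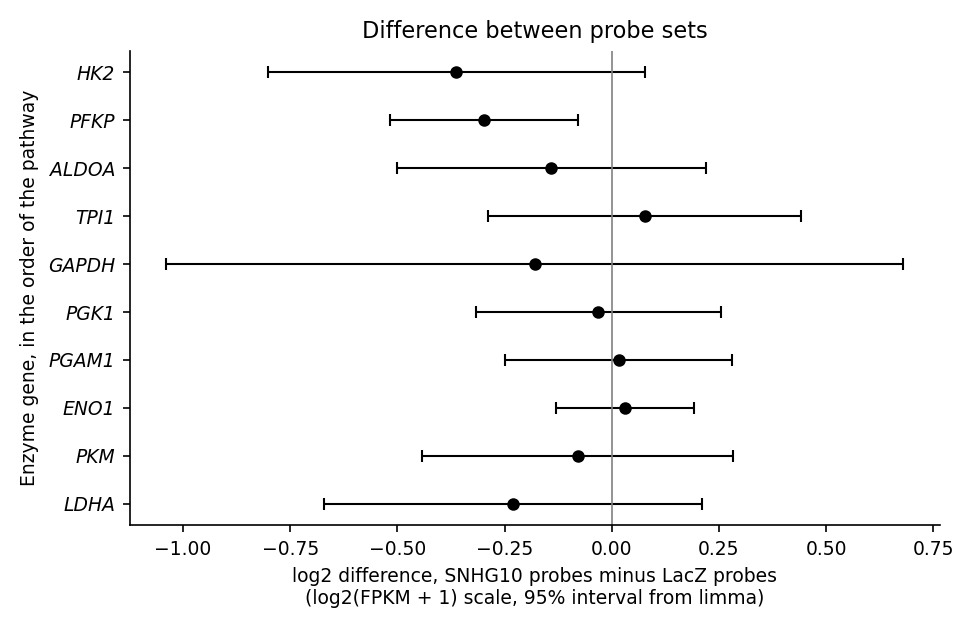
Log2 difference in FPKM + 1 for each enzyme gene, SNHG10 probes minus LacZ probes, with the limma estimate as a point and its 95% interval as a bar, in pathway order from top to bottom. The interval of PFKP ends at -0.08 and those of the other 9 genes include 0; the GAPDH interval is the widest, from -1.04 to 0.68.

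HK2 encodes hexokinase 2, the hexokinase that binds mitochondria and is typical of muscle, fat and tumour cells (ENSG00000159399.9_3, chr2:75061108-75120486, hg19, + strand). It had 14.2, 14.4 and 17.7 FPKM in SNHG10-probe libraries 1, 2 and 3, against 19.6, 20.2 and 20.3 FPKM in LacZ-probe libraries 1, 2 and 3. The 3 LacZ libraries were close together and all stood above the highest SNHG10 library. The means were 15.4 ± 1.99 FPKM with SNHG10 probes and 20.05 ± 0.376 FPKM with LacZ probes (n = 3 per probe set, SD), a log2 difference of -0.36 ± 0.19 (SE, 95% interval -0.80 to 0.08) with a limma adjusted p of 0.907. The two-sided exact permutation p was 0.1, the smallest that the 20 assignments of libraries allow. Nearly all of its signal came from the row HK2-201, which gave 92.0% to 100% of the sum.

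PFKP encodes the platelet-type subunit of phosphofructokinase, the enzyme of the committed step (ENSG00000067057.16_3, chr10:3109712-3179904, hg19, + strand). Its levels were 149, 149 and 141 FPKM in SNHG10-probe libraries 1, 2 and 3, against 179, 183 and 178 FPKM in LacZ-probe libraries 1, 2 and 3. Both sets were tight and did not overlap. The means were 146 ± 4.45 FPKM with SNHG10 probes and 180.1 ± 2.73 FPKM with LacZ probes (n = 3 per probe set, SD). The log2 difference was -0.30 ± 0.09 (SE, 95% interval -0.52 to -0.08), with a limma p of 0.0140 before and 0.885 after adjustment and an exact permutation p of 0.1. It stayed negative in all 16 alternative settings, from -0.31 to -0.24, with adjusted p from 0.842 to 0.933. The unadjusted limma p of PFKP ran from 0.0121 to 0.150 over these settings, the highest being without the intensity trend. Its dominant row, PFKP-203, held 85.3% to 94.4% of the sum and was itself separated, at 130.1, 138 and 133 FPKM in SNHG10-probe libraries 1, 2 and 3, against 168, 156 and 153 FPKM in LacZ-probe libraries 1, 2 and 3.

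ALDOA encodes aldolase A, the muscle-type aldolase that splits fructose bisphosphate (ENSG00000149925.17_4, chr16:30064411-30081741, hg19, + strand). It had 278, 347 and 339 FPKM in SNHG10-probe libraries 1, 2 and 3, against 284, 401 and 386 FPKM in LacZ-probe libraries 1, 2 and 3. Library 1 was the lowest of both probe sets, and the sets overlapped. The log2 difference was -0.14 ± 0.16 (SE, 95% interval -0.50 to 0.22; limma adjusted p = 0.932, exact permutation p = 0.5). TPI1 encodes triosephosphate isomerase, which interconverts the products of aldolase (ENSG00000111669.14_2, chr12:6976283-6980112, hg19, + strand). It had 283, 297 and 202 FPKM in SNHG10-probe libraries 1, 2 and 3, against 241, 263 and 228 FPKM in LacZ-probe libraries 1, 2 and 3. SNHG10 libraries held both its highest and its lowest value. The log2 difference was 0.08 ± 0.16 (SE, 95% interval -0.29 to 0.44; limma adjusted p = 0.961), and it was -0.03 without SNHG10 library 2 and 0.25 without SNHG10 library 3.

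GAPDH encodes glyceraldehyde-3-phosphate dehydrogenase, which makes the NADH of the pathway and whose mRNA is a common reference in expression assays (ENSG00000111640.14_2, chr12:6643093-6647540, hg19, + strand). It had 841, 1647 and 836 FPKM in SNHG10-probe libraries 1, 2 and 3, against 843, 2031 and 984 FPKM in LacZ-probe libraries 1, 2 and 3. In both probe sets the library numbered 2 stood far above the others, and the sets overlapped. LacZ library 2 was 2.41 times and SNHG10 library 2 was 1.96 times the median of the other 4 libraries, 842 FPKM, while the next library was 1.17 times that median. The ratio of the highest to the lowest library was 2.43. Among 364 tested genes averaging at least 100 FPKM, 14 had a larger ratio, and the median ratio was 1.35.

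The comparison of probe sets for GAPDH depended on these 2 libraries. The means were 1108 ± 467 FPKM with SNHG10 probes and 1286 ± 649 FPKM with LacZ probes (n = 3 per probe set, SD). The log2 difference was -0.18 ± 0.37 (SE, 95% interval -1.04 to 0.68; limma adjusted p = 0.962, exact permutation p = 0.5). It was 0.21 without LacZ library 2 and -0.50 without SNHG10 library 2. Over all tested genes, the deviations of these 2 libraries from their group means correlated at 0.0121, a description across genes, which are not independent replicates. Their FPKM totals, 268794 with SNHG10 probes and 277118 with LacZ probes, were the lowest and the highest of the 6. Human GAPDH has many processed pseudogenes, and how reads matching several copies were handled is not given in the sources used here, so its level is uncertain to that extent.

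The high values in the libraries numbered 2 ran through most GAPDH transcripts. GAPDH-201 (chr12:6643093-6647537, hg19) held 76.5% to 83.7% of the gene's sum and had 704, 1260 and 686 FPKM in SNHG10-probe libraries 1, 2 and 3, against 684, 1656 and 799 FPKM in LacZ-probe libraries 1, 2 and 3. The rows GAPDH-204, GAPDH-205 and GAPDH-211 were also highest in the libraries numbered 2, which stood 2.07 to 2.77 times above the median of the other 4. GAPDH-205 was highest in SNHG10 library 2 (173 FPKM), and the other rows of this pattern in LacZ library 2. The remaining rows departed from it. GAPDH-203 had 18.9, 69.8 and 23.1 FPKM in SNHG10-probe libraries 1, 2 and 3, against 20.8, 0 and 0.596 FPKM in LacZ-probe libraries 1, 2 and 3. GAPDH-202 stood at 57.4 FPKM in LacZ library 2, at 4.61 in SNHG10 library 3 and was listed at 0 in the other 4.

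**Figure D3:**
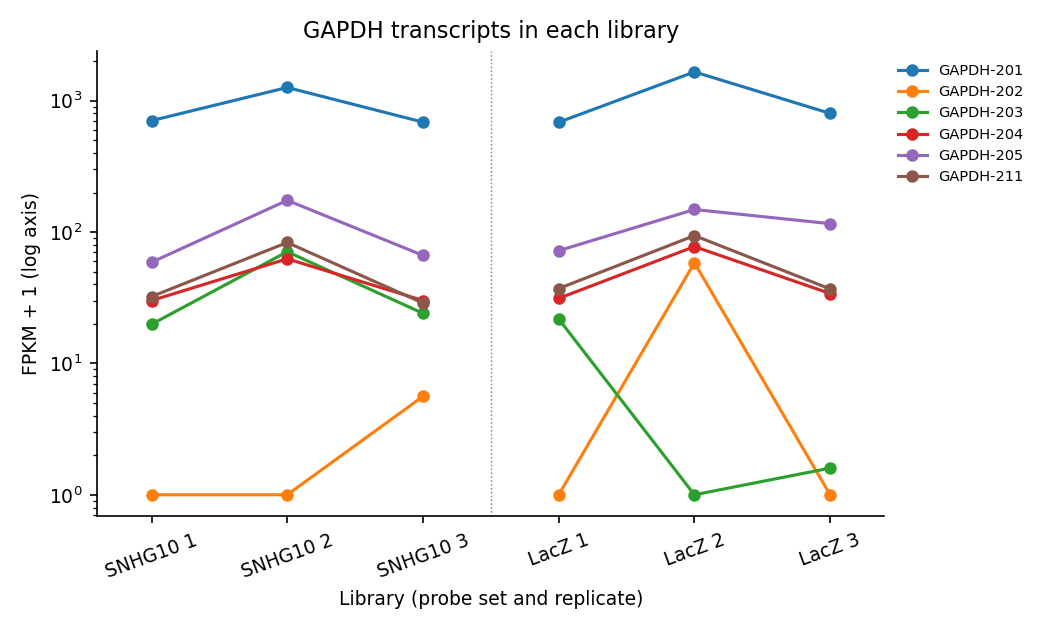
FPKM + 1 (log axis) of the 6 GAPDH transcript rows in each library, SNHG10 probes left of the dotted line and LacZ probes right of it, with lines joining the values of a transcript. GAPDH-201, GAPDH-204, GAPDH-205 and GAPDH-211 peak in both libraries numbered 2, and GAPDH-203 peaks in SNHG10 library 2 but is listed at 0 in LacZ library 2.

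The profiles nearest to GAPDH belonged to genes outside the 10. By root mean square distance of log2(FPKM + 1), centred on each gene's mean over the 6 libraries, the nearest of 2285 tested genes averaging at least 20 FPKM were ITM2C at 0.14, SKP1 at 0.18 and MRPS24 at 0.23. ITM2C, which encodes an integral membrane protein, had 20.6, 45.4 and 24.0 FPKM in SNHG10-probe libraries 1, 2 and 3, against 26.7, 55.0 and 32.7 FPKM in LacZ-probe libraries 1, 2 and 3. SKP1 encodes a subunit of SCF ubiquitin ligases and had 27.0, 43.7 and 22.7 FPKM in SNHG10-probe libraries 1, 2 and 3, against 18.0, 65.0 and 26.6 FPKM in LacZ-probe libraries 1, 2 and 3. MRPS24, a mitochondrial ribosomal protein gene, had 35.7, 72.6 and 33.2 FPKM in SNHG10-probe libraries 1, 2 and 3, against 27.0, 60.6 and 44.5 FPKM in LacZ-probe libraries 1, 2 and 3. In all 3 the libraries numbered 2 were the highest, which follows from their choice by nearness to GAPDH and is no separate result. Among the 8 other enzymes compared, ALDOA was the nearest at rank 150, with a distance of 0.41, and PGK1 the farthest at rank 1147. HK2 averaged less than 20 FPKM and was not compared.

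The 3 enzymes after GAPDH varied least between libraries among the 10. PGK1 encodes phosphoglycerate kinase, the earlier of the ATP-making steps (ENSG00000102144.13_2, chrX:77359671-77384793, hg19, + strand). It had 66.9, 61.6 and 65.2 FPKM in SNHG10-probe libraries 1, 2 and 3, against 69.0, 63.3 and 65.8 FPKM in LacZ-probe libraries 1, 2 and 3, with overlapping sets and a log2 difference of -0.03 ± 0.12 (SE, limma adjusted p = 0.979). PGAM1 encodes phosphoglycerate mutase 1, which moves the phosphate of phosphoglycerate (ENSG00000171314.8_2, chr10:99185917-99193198, hg19, + strand). It had 119, 125 and 109 FPKM in SNHG10-probe libraries 1, 2 and 3, against 117, 109 and 123 FPKM in LacZ-probe libraries 1, 2 and 3, with overlapping sets and a log2 difference of 0.02 ± 0.11 (SE, limma adjusted p = 0.992). ENO1 encodes alpha-enolase, which makes phosphoenolpyruvate (ENSG00000074800.13_3, chr1:8921061-8939308, hg19, - strand). It had 734, 691 and 702 FPKM in SNHG10-probe libraries 1, 2 and 3, against 691, 679 and 713 FPKM in LacZ-probe libraries 1, 2 and 3. The sets overlapped, and the log2 difference was 0.03 ± 0.07 (SE, 95% interval -0.13 to 0.19; limma adjusted p = 0.968). Its ratio of highest to lowest library was 1.08, against 1.12 for PGK1 and 1.15 for PGAM1. Among 821 tested genes averaging at least 50 FPKM, 5 had a smaller ratio than ENO1, 18 a smaller one than PGK1 and 47 a smaller one than PGAM1, beside a median ratio of 1.44.

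PKM encodes the pyruvate kinase of most tissues other than liver and red cells, which makes the last ATP of the route and is spliced into the M1 and M2 proteins (ENSG00000067225.17_4, chr15:72491370-72524160, hg19, - strand). It had 203, 270.2 and 300.5 FPKM in SNHG10-probe libraries 1, 2 and 3, against 242, 280.0 and 287 FPKM in LacZ-probe libraries 1, 2 and 3. The sets overlapped, and library 1 was the lowest of each. The log2 difference was -0.08 ± 0.16 (SE, 95% interval -0.44 to 0.28; limma adjusted p = 0.959), and it was 0.08 without SNHG10 library 1. LDHA encodes the A subunit of lactate dehydrogenase, the form linked to lactate production (ENSG00000134333.13_3, chr11:18415935-18429972, hg19, + strand). It had 243, 205 and 199 FPKM in SNHG10-probe libraries 1, 2 and 3, against 292, 296 and 186 FPKM in LacZ-probe libraries 1, 2 and 3. LacZ library 3 was the lowest of all 6, so the sets overlapped. The log2 difference was -0.23 ± 0.19 (SE, 95% interval -0.67 to 0.21; limma adjusted p = 0.928). It ran from -0.12 without LacZ library 2 to -0.45 without LacZ library 3, and none of these passed the test.

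Of the 5 families with more than 1 measured isozyme, PFKP, ENO1 and PGAM1 held most of theirs, while HK2 and LDHA shared theirs with HK1 and LDHB. Rows were present for 8 genes of these 5 families outside the 10. The hexokinase HK3, the aldolase ALDOC, and GAPDHS, PGK2, PGAM2, PKLR, LDHC, LDHAL6A and LDHAL6B had no row in the values used here and so were not analysed. Shares below are of the summed FPKM of the family members with rows. Shares were tested for 5 families with the two-sided exact permutation test, and the Benjamini-Hochberg adjusted values were 0.833 or 0.900 throughout.

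HK1, the broadly expressed hexokinase, was the main hexokinase, at 19.3, 29.1 and 21.5 FPKM in SNHG10-probe libraries 1, 2 and 3, against 29.8, 27.0 and 27.0 FPKM in LacZ-probe libraries 1, 2 and 3. HKDC1, a hexokinase-like gene, lay between 7.81 and 12.2 FPKM. HK2 held 32.3% ± 3.80 of the family with SNHG10 probes and 34.7% ± 1.62 with LacZ probes (n = 3 per probe set, SD; exact permutation p = 0.5). The summed hexokinase level was 41.3, 51.6 and 51.4 FPKM in SNHG10-probe libraries 1, 2 and 3, against 59.1, 58.5 and 55.8 FPKM in LacZ-probe libraries 1, 2 and 3. The sum, which includes HK2, was separated as HK2 was, while the share was not. The phosphofructokinase sum, which includes PFKP, was separated too, at 169 to 194 FPKM with SNHG10 probes, against 222 to 240 FPKM with LacZ probes.

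PFKP was the main phosphofructokinase subunit, with 79.9% ± 7.38 of the family in SNHG10-probe libraries and 78.7% ± 3.94 in LacZ-probe libraries (n = 3 per probe set, SD; exact permutation p = 0.9). PFKL, the liver-type subunit, had 28.4, 19.3 and 24.0 FPKM in SNHG10-probe libraries 1, 2 and 3, against 31.5, 18.6 and 32.4 FPKM in LacZ-probe libraries 1, 2 and 3. PFKM, the muscle-type subunit, had 16.5, 0.434 and 24.3 FPKM in SNHG10-probe libraries 1, 2 and 3, against 29.4, 20.1 and 15.1 FPKM in LacZ-probe libraries 1, 2 and 3. SNHG10 library 2 stood alone in PFKM, and PFKP held its highest share, 88.3%, there. The PFKM log2 difference was -1.34 ± 0.97 (SE, limma adjusted p = 0.928) and was -0.05 without that library, and the difference in the PFKP share, 1.18 percentage points, was -3.03 without it.

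ENO1 held 97.9% ± 0.349 of enolase with SNHG10 probes and 98.0% ± 0.648 with LacZ probes (n = 3 per probe set, SD; exact permutation p = 0.8). ENO2, the neuronal enolase, lay between 6.83 and 13.0 FPKM, with a log2 difference of -0.41 ± 0.28 (SE, limma adjusted p = 0.928). ENO3, the muscle enolase, lay between 0 in LacZ library 1 and 11.2 FPKM. Its sets overlapped, with a log2 difference of 1.40 ± 0.73 (SE, limma adjusted p = 0.907). With the highest row of ENO3 alone the difference was 2.87, with a limma p of 0.000107 before and 0.103 after adjustment. PGAM1 held 95.9% ± 1.42 of phosphoglycerate mutase with SNHG10 probes and 98.2% ± 1.10 with LacZ probes (n = 3 per probe set, SD; exact permutation p = 0.2). The rest was PGAM4, a near-identical intronless copy of PGAM1, at 4.59, 7.39 and 3.18 FPKM in SNHG10-probe libraries 1, 2 and 3, against 0.945, 3.34 and 2.101 FPKM in LacZ-probe libraries 1, 2 and 3. Reads of PGAM1 and PGAM4 can be exchanged, so that share is uncertain. LDHB, the B subunit linked to lactate use, had 292, 319 and 220.2 FPKM in SNHG10-probe libraries 1, 2 and 3, against 309, 263 and 267 FPKM in LacZ-probe libraries 1, 2 and 3. LDHA held 44.0% ± 4.37 of lactate dehydrogenase with SNHG10 probes and 47.5% ± 6.03 with LacZ probes (n = 3 per probe set, SD; exact permutation p = 0.4), so neither subunit dominated. GPI, the isomerase between hexokinase and phosphofructokinase, had 77.7, 79.2 and 80.8 FPKM in SNHG10-probe libraries 1, 2 and 3, against 86.1, 75.9 and 93.0 FPKM in LacZ-probe libraries 1, 2 and 3, with overlapping sets.

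**Figure D4:**
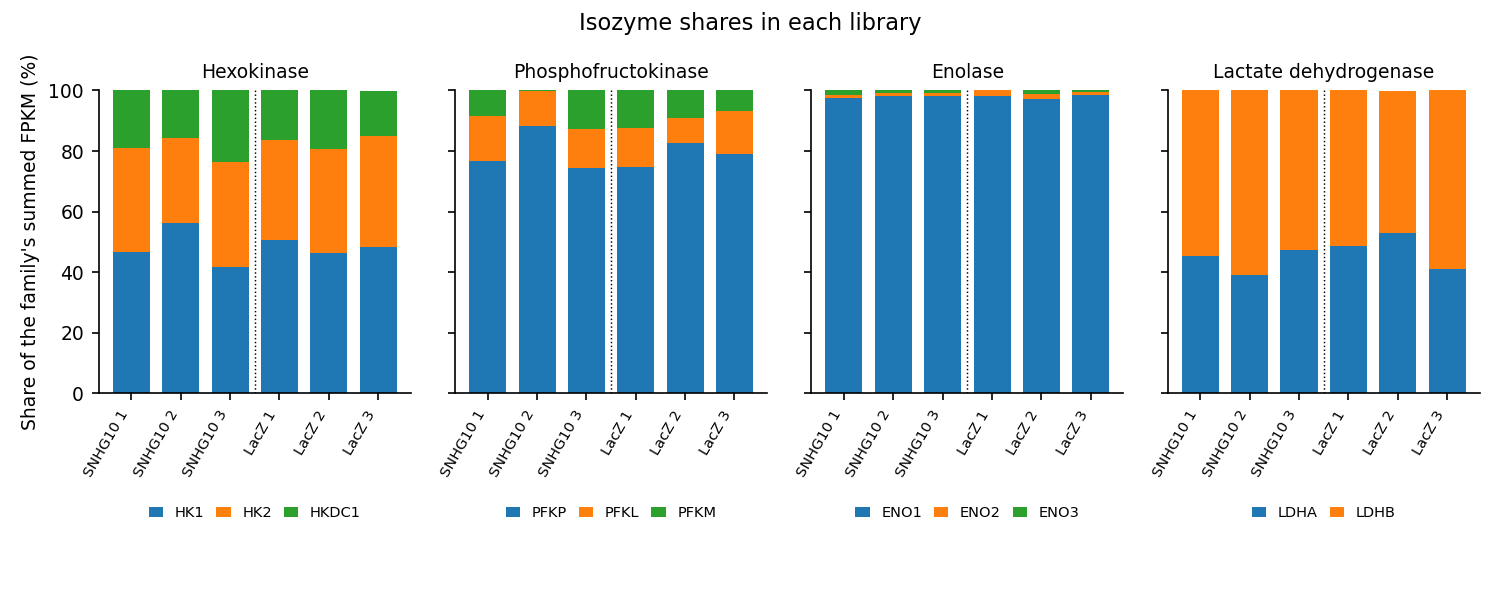
Share of each isozyme in the summed FPKM of its family (%), for hexokinase, phosphofructokinase, enolase and lactate dehydrogenase, SNHG10-probe libraries left of the dotted line and LacZ-probe libraries right of it. ENO1 takes 97.3% to 98.6% of enolase in the 6 libraries, PFKP 74.5% to 88.3% of phosphofructokinase, LDHA 39.1% to 52.9% of lactate dehydrogenase and HK2 27.9% to 36.4% of hexokinase.

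At the level of transcript rows, the enzymes divided into genes read from a single main transcript and genes whose make-up differed from library to library. PGK1 and PGAM1 had a single row, and ENO1-201 held 96.2% to 98.1% of ENO1. HK2-201, PFKP-203, GAPDH-201 and TPI1-202 were the highest row of their genes in all 6 libraries. In TPI1 that row held 52.5% of the sum in SNHG10 library 3, against 86.3% to 97.0% in the other 5 libraries, while TPI1-209 had 52.8 FPKM there and at most 12.3 FPKM elsewhere.

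ALDOA, PKM and LDHA had no constant main row. ALDOA-202 had 132, 239 and 0 FPKM in SNHG10-probe libraries 1, 2 and 3, against 28.5, 0 and 0 FPKM in LacZ-probe libraries 1, 2 and 3. ALDOA-226, which covers nearly the same stretch (chr16:30077093-30081673, against chr16:30077098-30081701 for ALDOA-202, hg19), had 15.8, 7.06 and 273 FPKM in SNHG10-probe libraries 1, 2 and 3, against 62.1, 216 and 227 FPKM in LacZ-probe libraries 1, 2 and 3. Where ALDOA-202 was high ALDOA-226 was low, and the gene sum varied by a ratio of 1.44 over the libraries. Taken alone, ALDOA-226 gave a log2 difference of -2.13 (limma adjusted p = 0.951), against -0.14 for the summed gene. In PKM the highest row was PKM-205, PKM-202 and PKM-202 in SNHG10-probe libraries 1, 2 and 3, and PKM-203, PKM-205 and PKM-202 in LacZ-probe libraries 1, 2 and 3, with 30.0% to 62.1% of the sum. PKM-205 had 89.1, 0 and 0 FPKM in SNHG10-probe libraries 1, 2 and 3, against 71.4, 120 and 0 FPKM in LacZ-probe libraries 1, 2 and 3. PKM-220 reached 105 FPKM in SNHG10 library 3 and 46.6 FPKM in LacZ library 1 and stayed at or below 0.425 FPKM in the other 4, and PKM-216 reached 84.7 FPKM in LacZ library 3 and 34.7 FPKM in SNHG10 library 2. Different rows thus carried the gene in different libraries of the same probe set. The files do not pair these rows with the M1 or M2 protein, so no balance of the 2 is given. In LDHA the highest row was LDHA-205 in SNHG10 libraries 1 and 3 and in LacZ library 2, and LDHA-201 in the other 3, with 22.4% to 59.2% of the sum. LDHA-204, with 50.1 FPKM in SNHG10 library 1 and 74.2 FPKM in LacZ library 2, and LDHA-206, with 30.9 and 41.6 FPKM in those same libraries, were listed at 0 in the other 4. Of the 63 rows of the 10 genes, 44 averaged at least 5 FPKM or had an unadjusted p under 0.05. Over all 63 rows, 34 were listed at 0 in at least 1 library, and a listed 0 can be a failed estimate rather than absent RNA. Rows of a gene share most of their exons, and the program that divided reads among them is not given in the sources used here.

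**Figure D5:**
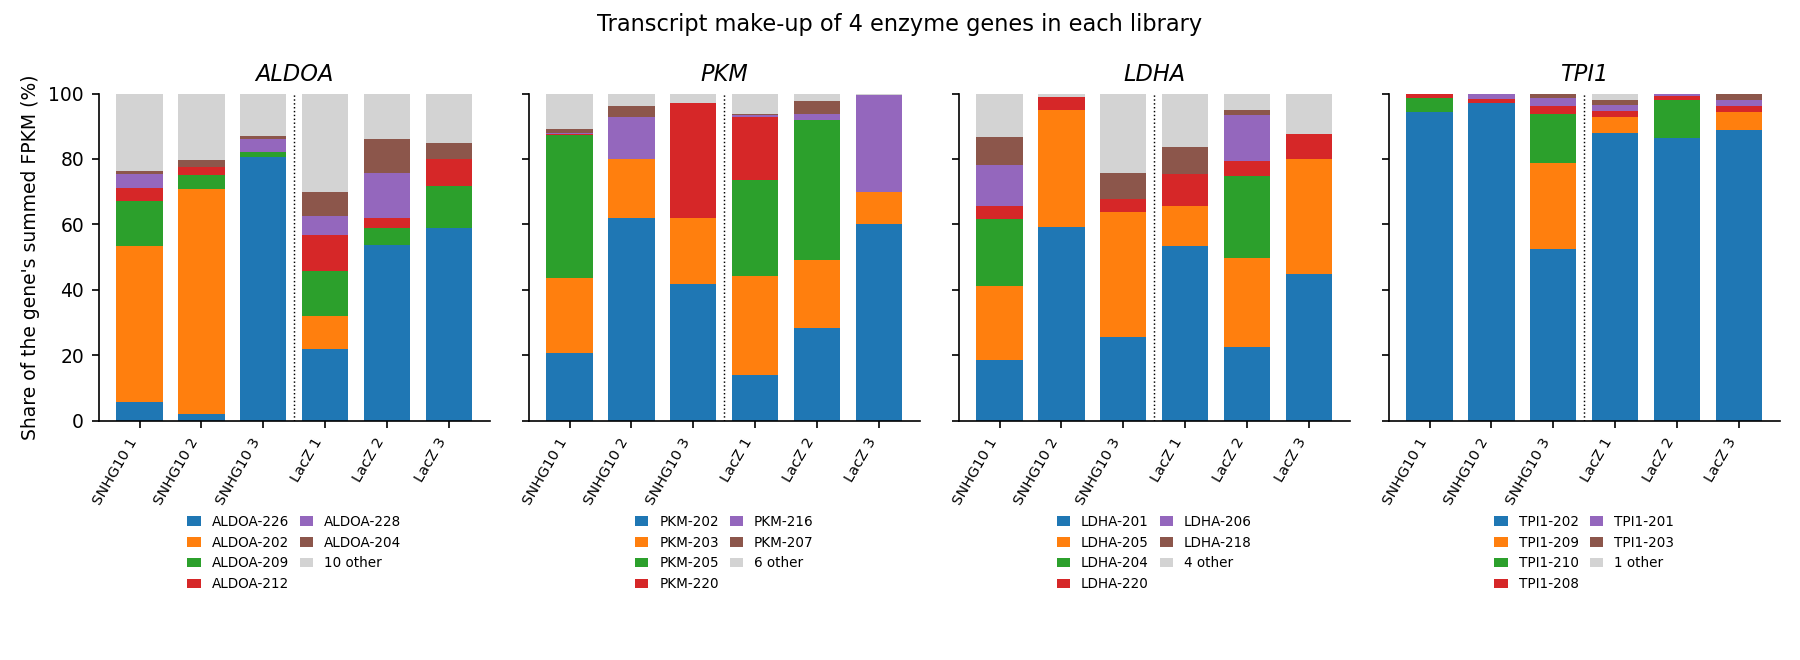
Share of each transcript row in the summed FPKM of ALDOA, PKM, LDHA and TPI1 (%), with the 6 rows of highest mean coloured and the rest in grey, SNHG10-probe libraries left of the dotted line and LacZ-probe libraries right of it. The main ALDOA row is ALDOA-202 in SNHG10 libraries 1 and 2 and ALDOA-226 in the other 4, and TPI1-202 takes 52.5% of TPI1 in SNHG10 library 3.

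Of the 63 rows, 47 passed the filter and 0 were called between probe sets by limma, where 0.0481% of 16618 rows were called higher and 0.0421% lower over the whole table. These were 15 rows in all, and 0 were called on leaving out any 1 of the 6 libraries. The smallest adjusted p of a member row was 0.274, for ALDOA-204 (chr16:30075818-30081732, hg19). This row had 1.78, 7.94 and 3.07 FPKM in SNHG10-probe libraries 1, 2 and 3, against 20.7, 42.3 and 19.3 FPKM in LacZ-probe libraries 1, 2 and 3. The sets did not overlap, and the log2 difference was -2.52 ± 0.53 (SE, 95% interval -3.80 to -1.23). It makes up 0.641% to 10.5% of the ALDOA sum. In all, 6 of the 47 rows were separated downward (ALDOA-204, ALDOA-212, LDHA-220, LDHA-221, PFKP-203 and HK2-201) and 0 upward, beside 6.06% and 4.48% of all tested rows. An unadjusted limma p under 0.05 was found for 5 rows with a negative difference, all of those named except HK2-201, and for 1 with a positive one, GAPDH-203, beside 3.06% and 2.59% of all tested rows.

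ALDOA-212, LDHA-220 and LDHA-221 were the other separated rows of ALDOA and LDHA. ALDOA-212 had 11.6, 8.66 and 0.784 FPKM in SNHG10-probe libraries 1, 2 and 3, against 31.3, 11.9 and 31.6 FPKM in LacZ-probe libraries 1, 2 and 3 (limma adjusted p = 0.872). LDHA-220 had 9.28, 8.07 and 7.68 FPKM in SNHG10-probe libraries 1, 2 and 3, against 28.5, 13.5 and 14.2 FPKM in LacZ-probe libraries 1, 2 and 3 (limma adjusted p = 0.765). LDHA-221 had 0.813, 2.39 and 2.45 FPKM in SNHG10-probe libraries 1, 2 and 3, against 4.18, 4.64 and 16.99 FPKM in LacZ-probe libraries 1, 2 and 3 (limma adjusted p = 0.859). ALDOA-212 and LDHA-220 were minor rows of their genes, with up to 11.0% of ALDOA and up to 9.77% of LDHA. The ALDOA rows ALDOA-204 and ALDOA-212 start between the upstream and the downstream group of ALDOA starts. Summed over the 6 rows that start there (chr16:30075493 to 30076469, a grouping chosen after the values were seen), the level was 92.3, 48.7 and 8.51 FPKM in SNHG10-probe libraries 1, 2 and 3, against 138, 92.6 and 107 FPKM in LacZ-probe libraries 1, 2 and 3. The sets did not overlap, although SNHG10 library 1 lay just below LacZ library 2. This sum includes ALDOA-204 and ALDOA-212, which were singled out for not overlapping, so it adds no support to them. The 6 rows with a downstream start summed to 173, 260 and 288 FPKM in SNHG10-probe libraries 1, 2 and 3, against 129, 250 and 227 FPKM in LacZ-probe libraries 1, 2 and 3, and the 4 with an upstream start to 12.03, 38.7 and 42.4 FPKM in SNHG10-probe libraries, against 17.02, 58.3 and 52.1 FPKM in LacZ-probe libraries. Both of these sums overlapped between probe sets.

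Genes that feed the route, steer it or take its products showed no call in either direction. Among genes of glucose transport and lactate export, 6 were tested, of which 3 had a positive and 3 a negative difference. SLC16A3, the lactate exporter of glycolytic cells, had 49.3, 84.3 and 44.5 FPKM in SNHG10-probe libraries 1, 2 and 3, against 65.9, 55.2 and 47.4 FPKM in LacZ-probe libraries 1, 2 and 3. BSG, the chaperone of lactate transporters, ranged from 78.4 to 135 FPKM with SNHG10 probes, against 124 to 149 FPKM with LacZ probes, and SLC16A1, the broadly expressed lactate transporter, from 13.3 to 16.4 FPKM with SNHG10 probes, against 10.1 to 24.0 FPKM with LacZ probes. SNHG10 and LacZ libraries overlapped in all 3.

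Among 7 tested regulators of glycolysis, 2 had a positive and 5 a negative difference, and 0 were called. MYC, the transcription factor, had 40.6, 67.6 and 42.5 FPKM in SNHG10-probe libraries 1, 2 and 3, against 22.5, 58.5 and 28.5 FPKM in LacZ-probe libraries 1, 2 and 3. The libraries numbered 2 were the highest of each set here too, and MYC stood at rank 61 of 2285 in nearness to GAPDH, a value picked out after it was seen. HIF1A, the oxygen-regulated subunit of HIF-1, lay between 23.3 and 27.8 FPKM with SNHG10 probes and between 27.6 and 34.3 FPKM with LacZ probes. PFKFB3, which makes the activator of phosphofructokinase, lay between 14.8 and 23.8 FPKM with SNHG10 probes and between 18.7 and 22.1 FPKM with LacZ probes. BPGM, the mutase that makes 2,3-bisphosphoglycerate, had 2.097, 1.43 and 0 FPKM in SNHG10-probe libraries 1, 2 and 3, against 2.87, 3.39 and 6.21 FPKM in LacZ-probe libraries 1, 2 and 3. Its sets did not overlap, beside 7.21% of all tested genes separated downward. The log2 difference was -1.34, with a limma p of 0.0312 before and 0.885 after adjustment. Before adjustment, the limma p was 0.0700 with a pseudocount of 0.1. With the gene's highest row it was 0.611, at a log2 difference of -0.39.

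Downstream of pyruvate, 12 genes of its entry into mitochondria and the pyruvate dehydrogenase complex were tested, of which 4 had a positive and 8 a negative difference and 0 were called. In 1 of them, PC, pyruvate carboxylase, named after its values were seen, the sets did not overlap, at 2.71 to 3.39 FPKM with SNHG10 probes, against 3.41 to 5.41 FPKM with LacZ probes, beside 7.21% of all tested genes separated downward. The subunit PDHA1 had 21.3, 23.6 and 27.5 FPKM in SNHG10-probe libraries 1, 2 and 3, against 26.6, 39.4 and 35.9 FPKM in LacZ-probe libraries 1, 2 and 3, and its partner PDHB had 28.2, 23.9 and 30.0 FPKM in SNHG10-probe libraries, against 26.4, 14.5 and 16.9 FPKM in LacZ-probe libraries. The differences of the 2 subunits had opposite signs, at -0.47 ± 0.21 for PDHA1 and 0.53 ± 0.25 for PDHB on the log2 scale (SE, limma adjusted p = 0.885 for each). With each gene's highest row in place of its sum, both were positive, at 0.47 for PDHA1 and 0.50 for PDHB. PDP1, the phosphatase that activates the complex, lay between 24.0 and 38.6 FPKM with SNHG10 probes and between 27.2 and 50.7 FPKM with LacZ probes. In the pentose phosphate pathway, which branches off after hexokinase, 7 genes were followed, with 1 positive and 6 negative differences and 0 calls. TKT, transketolase, lay between 165 and 190 FPKM with SNHG10 probes and between 109 and 222 FPKM with LacZ probes. PGLS, the lactonase of that branch, had 45.3, 41.0 and 29.2 FPKM in SNHG10-probe libraries 1, 2 and 3, against 37.7, 78.5 and 53.4 FPKM in LacZ-probe libraries 1, 2 and 3. Its sets overlapped, with a log2 difference of -0.50 ± 0.29 (SE, limma adjusted p = 0.920), which was -0.24 without LacZ library 2, -0.32 without SNHG10 library 3 and -0.76 without LacZ library 1. PGD, a dehydrogenase of that branch, averaged 68.7 ± 9.71 FPKM with SNHG10 probes and 68.4 ± 4.53 FPKM with LacZ probes (n = 3 per probe set, SD).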

How the data were processed

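RNA was measured in 6 libraries of SK-Hep1 cells, 3 with SNHG10 probes and 3 with LacZ probes, grouped and numbered by the labels. Per the file headers, each deposited value is the FPKM of a transcript. The submitters' processing notes name Bowtie2 2.1.0 and the build hg19. The FPKM program is not given in the sources used here. Every row had at least 0.507 FPKM in some library. The smallest value above 0 was 5e-06, and 159 values lay between 0 and 0.001, too low for whole reads, so depth is unknown and no detection limit was computed.

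FPKM were added up for each gene symbol. The 10304 genes that reached 1 FPKM in 3 or more libraries, and 16618 transcript rows by the same filter, entered a test on log2(FPKM + 1) in limma 3.58.1 (R 4.3.3), with an intensity trend, Benjamini-Hochberg adjustment and a threshold of 0.05; this scale understates changes of low genes. The code was tested on simulated data. Single values were compared by two-sided exact permutation over 20 assignments, whose smallest p is 0.1. The text names the 10 enzymes, their rows with a mean of at least 5 FPKM or an unadjusted p under 0.05 (counted, with values for those the results turn on), measured isozymes, the 3 most abundant genes of each related list and any with such a p, and the 3 profiles nearest to GAPDH; a few genes of these lists are not reported here. The enzymes and lists were chosen with earlier results of these data known. The settings tried besides were a block for replicate number, leaving out each library, 2 other scalings, pseudocounts of 0.1 and 5, no filter or 5 FPKM, limma without trend, robust eBayes, and each gene's highest row in place of its sum. Python 3.11.15 with pandas 2.3.3 and scipy 1.17.1 did the rest.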

Additional observations from a re-analysis of the deposited data

How the results depend on the processing

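Of 744 alternative values, 695 kept their direction and side of the threshold or stayed within the stated spread, 45 changed sign (27 of them on leaving out a library) and 4 counts moved; the 10 enzymes and their transcript rows had 0 calls under every setting run. Over all genes the count was 0 higher and 0 lower (558 with an unadjusted limma p under 0.05), and it ranged from 0 to 1 in each direction on leaving out a library (1 higher without LacZ library 2, 1 lower without SNHG10 library 1). With each gene's highest row in place of its sum, 2 genes were called higher (OXA1L and TCAF1) and 2 lower (FAM83D and MSANTD3), none of them of the route. ALDOA, HK2, LDHA and PFKP kept a negative difference in 16 of 16 settings, and ENO1 kept a positive one in all 16. The settings reuse the same libraries. With the highest row, the sign changed for PKM (0.302), TPI1 (-0.0868), GPI (0.656), BSG (0.766), SLC16A3 (-0.210), PDP1 (0.363), PDHA1 (0.474), TKT (0.291), PCK2 (1.02), ADM (0.196) and the PFKP isozyme share (-1.21 percentage points); fewer rows enter these values by construction. Median-ratio scaling gave PGK1 0.0279, LDHB 0.0325, TKT 0.0597 and PGD 0.0582, quantile normalization gave TKT 0.0277 and PGD 0.0256, and a pseudocount of 0.1 gave TKT 0.000127. On leaving out a library, differences ran from -0.504 to 0.206 for GAPDH, -0.199 to 0.0825 for PKM, -0.0608 to 0.00188 for PGK1, -0.0266 to 0.251 for TPI1, -0.0302 to 0.0669 for PGAM1, -0.262 to 0.0288 for HKDC1, -0.138 to 0.129 for LDHB, -0.244 to 0.210 for SLC16A3, -0.166 to 0.421 for SLC16A1, -0.340 to 0.173 for TKT, -0.0746 to 0.119 for PGD and -0.0106 to 0.300 for DDIT4, and from -3.03 to 3.86 and -0.476 to 0.159 percentage points for the PFKP and ENO1 isozyme shares. The cause of these changes was not tested.

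Libraries of the same number deviated together with correlations of 0.0151, 0.0121 and 0.0161 over genes, each library correlating best with its own number but below 0.1, so the numbers were not taken to pair them. The replicate block called 0 genes and 0 enzyme rows, as without it. Unadjusted limma p-values moved both ways with the block, in genes picked after the values were seen. They were 0.0918 for GAPDH (0.641 without it), 0.0322 for MYC (0.182) and 0.00823 for PCK2 (0.0362). Higher values came for PFKP, at 0.0331 (0.0140 without it), and BPGM, at 0.0615 (0.0312). The limma adjusted p with the block was 0.886 for each. Rows called over the whole table went to 0 with the block, against 15 without it. That count was also 0 on leaving out any 1 library, 5 with either other pseudocount, 6 with either other filter, 13 with robust eBayes and 53 without trend. The log2(FPKM + 1) intervals are wide at 3 libraries a set, and the unknown depth leaves low rows without a detection limit.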

Other observations

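Of the enzymes of gluconeogenesis, the reverse route, 2 had rows, both with a negative difference and 0 called. PCK2, the mitochondrial phosphoenolpyruvate carboxykinase, had 27.5, 19.3 and 13.3 FPKM in SNHG10-probe libraries 1, 2 and 3, against 41.5, 33.5 and 25.7 FPKM in LacZ-probe libraries 1, 2 and 3. The sets overlapped by 1 library, SNHG10 library 1, with a log2 difference of -0.75 ± 0.30 (SE) and a limma p of 0.0362 before and 0.885 after adjustment, and the sign turned with the gene's highest row alone. G6PC3, a broadly expressed glucose-6-phosphatase, had 8.23, 29.8 and 6.97 FPKM in SNHG10-probe libraries 1, 2 and 3, against 25.4, 17.6 and 24.0 FPKM in LacZ-probe libraries 1, 2 and 3. FBP1, FBP2, PCK1 and G6PC had no row in the values used here and so were not analysed.

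Of HIF-1 targets outside glycolysis, 10 were tested, with 5 positive and 5 negative differences and 0 called. Every SNHG10-probe library lay above every LacZ-probe library in 3 of them (NDRG1, EGLN1 and P4HA2, named after their values were seen) and below in 1, beside 4.22% and 7.21% of all tested genes. The log2 differences were 0.92 ± 0.41 for NDRG1, 0.51 ± 0.26 for EGLN1 and 0.87 ± 0.39 for P4HA2 (SE, limma adjusted p = 0.885 for each). The 1 below was P4HA1, a collagen prolyl hydroxylase subunit, with 6.01, 4.82 and 1.49 FPKM in SNHG10-probe libraries 1, 2 and 3, against 10.1, 8.19 and 7.21 FPKM in LacZ-probe libraries 1, 2 and 3 (limma, adjusted p = 0.885). DDIT4, a stress-induced inhibitor of mTORC1, averaged 65.7 ± 14.9 FPKM with SNHG10 probes and 60.2 ± 1.23 FPKM with LacZ probes. The secreted peptide gene ADM averaged 49.3 ± 14.8 FPKM with SNHG10 probes and 67.4 ± 7.46 FPKM with LacZ probes, and BNIP3L, a mitophagy receptor gene, 24.9 ± 3.58 FPKM with SNHG10 probes and 28.2 ± 1.42 FPKM with LacZ probes (SD, n = 3 each).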
